A study of Homo sapiens with 5 samples.

Results

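Wide distal RUNX1 peaks are stretches of RUNX1 signal of 1200 bp or more that lay away from H3K4me3 peaks and away from dense groups of RUNX1 peaks. Distal here means away from H3K4me3 peaks only, so a peak may still lie at the start of a gene. They were taken from the RUNX1 peak list of MOLT-4 cells by 3 conditions on the peak coordinates: a width of at least 1200 bp, no H3K4me3 peak within 5 kb, and no place in a region of 5 or more RUNX1 peaks joined at gaps of 12.5 kb or less. Of 36736 RUNX1 peaks on chromosomes 1 to 22 and X, 6645 met the width, 2064 of those also lay away from H3K4me3, and 1309 met all conditions. These 1309 peaks made up 3.56% of the RUNX1 peaks and 7.29% of the bases in RUNX1 peaks. The peaks were chosen by RUNX1 width, RUNX1 grouping and H3K4me3 distance, so these values are given as a description.

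MOLT-4 is a cell line grown from a human T cell leukaemia of the acute lymphoblastic kind. The cells were profiled by CUT&RUN, in which micrococcal nuclease, tethered to chromatin through an antibody, cuts out the fragments that are then sequenced. The study made 5 samples: 1 library for each of the antibodies to H3K4me3, RUNX1 and SMA4, and 2 IgG controls, of which 1 is named for H3K4me3 and the other for no target. The labels do not spell out SMA4. IgG peaks were not used here, so no overlap has an IgG value beside it. With 1 library per antibody there was no replicate check and no test: shares carry 95% Wilson intervals and differences of shares carry 95% Newcombe intervals. These intervals cover counting error only and treat neighbouring peaks as independent. The lists give no read depth, height or score for a peak.

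RUNX1 is a runt-domain transcription factor that pairs with CBFB and binds promoters and enhancers of blood cell genes. It is needed for T cell development and is part of the transcription factor circuit of T cell leukaemia. H3K4me3 marks active and poised promoters, while enhancers away from promoters usually carry little of it. Neighbouring factor sites and open chromatin around them can fuse into a single wide peak in a peak list.

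Most of the wide distal peaks were not much above the width limit. In the middle of their distribution they spanned 1460 bp (quartiles 1301 and 1779 bp), and the maximum was 5798 bp. By class, 324 peaks were from 1200 to below 1300 bp wide, 377 from there to below 1500 bp, 405 to below 2000 bp, 175 to below 3000 bp, and 28 were 3000 bp or wider. The limit does not fall at a break in the list: 75 peaks were 1200 to 1219 bp wide, and 64 otherwise alike peaks were 1180 to 1199 bp wide. Peaks just inside the limit were those on chromosome 3 from 46139348 to 46140547 and on chromosome 21 from 47034932 to 47036131, each 1200 bp wide. Peaks just outside, at 1199 bp, were those on chromosome 1 from 25251203 to 25252401 and on chromosome 4 from 53921108 to 53922306.

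The 10 widest peaks spanned 3568 to 5798 bp, and none of them was alone in its region. The widest lay on chromosome 5 from 1311691 to 1317488, with another RUNX1 peak 0.245 kb away, H3K4me3 26.5 kb away and no SMA4 peak. The second spanned 5375 bp on chromosome 6 from 14379661 to 14385035 and was 64.6 kb from H3K4me3. The third, on chromosome 6 from 170202988 to 170208000 (5013 bp), held 1 SMA4 peak of 302 bp. In all, 4 of the 10 widest held an SMA4 peak, against 9.01% of all wide distal peaks, 15.8% of those of 2000 bp or more and 2.56% of all RUNX1 peaks.

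The other 3 with SMA4 lay far from H3K4me3. A peak of 3789 bp on chromosome 10 from 90144944 to 90148732 was 442 kb from H3K4me3 and held an SMA4 peak of 473 bp, whose midpoint was 92 bp from its own. A peak of 3722 bp on chromosome 16 from 54082748 to 54086469 was 233 kb from H3K4me3 and held an SMA4 peak of 405 bp, 48.5 bp from its midpoint. In both, SMA4 thus sat almost at the centre of the RUNX1 peak. In the third, on chromosome 3 from 106543230 to 106546797, an SMA4 peak of 214 bp lay 1259 bp from the midpoint, towards one end.

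The remaining peaks of the 10 held no SMA4 peak. One of 4039 bp lay on chromosome 20 (58630357 to 58634395) and one of 3849 bp on chromosome 14 (75713566 to 75717414). The peak on chromosome 15, 3682 bp wide, ran from 58842532 to 58846213, and that on chromosome 2, 3590 bp wide, from 60112765 to 60116354. Their distances to H3K4me3 ran from 8.29 kb for the chromosome 14 peak to 660 kb for the chromosome 2 peak, so great width was found both close to and far from H3K4me3.

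An hg19 gene annotation was not used here, so distances to genes are not given and no gene was matched to a peak by coordinates. The gene names here and in later paragraphs are background from general knowledge of the human genome map and no result of these files. Each was checked only for its chromosome, in the RefSeq table of GRCh38. On that map the widest peak lies beside CLPTM1L. The chromosome 6 peak of 5375 bp lies in the interval between CD83, which encodes a surface protein of thymic epithelium, dendritic cells and lymphocytes, and JARID2, which encodes a cofactor of Polycomb repressive complexes. The chromosome 14 peak lies upstream of FOS, which encodes a subunit of the AP-1 transcription factor. The chromosome 10 peak lies in RNLS, the chromosome 16 peak in FTO, which encodes an RNA demethylase, and the chromosome 15 peak in LIPC, which encodes hepatic lipase. The chromosome 2 peak lies in the gene-poor stretch next to BCL11A, a zinc finger repressor gene of the lymphoid and erythroid lineages.

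Wide distal peaks ranged from just past the 5 kb limit to megabases from H3K4me3. The median distance was 86.2 kb, with quartiles of 37.7 and 193 kb and a range of 5.26 to 4281 kb. Only 46 peaks (3.51%) lay within 10 kb, so few sat close to the 5 kb limit, while 234 (17.9%) lay over 250 kb away and 22 over 1000 kb away. The peaks just inside the distance limit were those on chromosome 3 from 48520046 to 48521265 (5264 bp from H3K4me3) and on chromosome 5 from 36058974 to 36061034 (5326 bp). Just outside were a peak on chromosome 5 from 176783859 to 176785334 (4768 bp) and one on chromosome 19 from 15952929 to 15955990 (4623 bp). The 16028 narrower distal peaks outside large clusters had a median distance of 74.5 kb (quartiles 30.7 and 180 kb), close to that of the wide ones. The 755 wide distal peaks in large clusters had a median of 39.0 kb (quartiles 15.2 and 96.5 kb). Peak width was about the same at all distances, with medians of 1462 bp up to 250 kb from H3K4me3 and 1458 bp beyond.

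**Figure D1:**
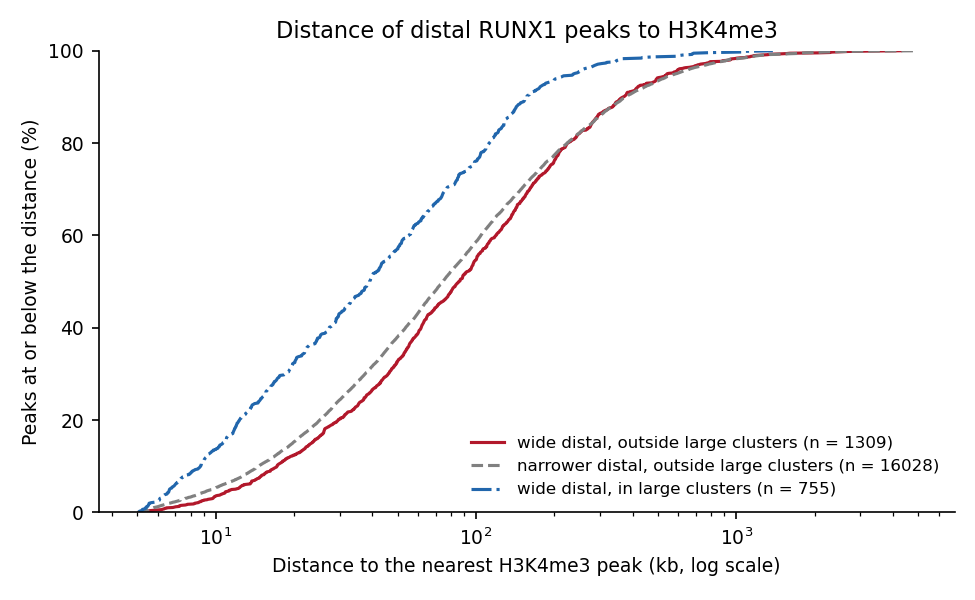
Cumulative share of distal RUNX1 peaks (y axis, %) by distance to the nearest H3K4me3 peak (x axis, kb, log scale) for 1309 wide peaks outside large clusters, 16028 narrower peaks outside large clusters and 755 wide peaks in large clusters. The first pair of curves run close together, with medians of 86.2 and 74.5 kb, and the clustered peaks lie nearer to the mark, with a median of 39.0 kb.

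The H3K4me3 peak nearest to a wide distal peak was much like the H3K4me3 list as a whole in width and RUNX1 overlap. Its median width was 930 bp, against 938 bp over all 13181 H3K4me3 peaks. It overlapped a RUNX1 peak of its own in 90.0% of cases, against 88.1% of all H3K4me3 peaks, and an SMA4 peak in 3.67%, against 2.39%. The SMA4 share was 3.32% for the H3K4me3 peaks nearest to narrower distal peaks outside large clusters, and 3.04% for those nearest to all RUNX1 peaks. For 8.56% it was a peak of 179 bp, the narrowest in the list, against 7.45% of all H3K4me3 peaks.

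The 5 peaks farthest from H3K4me3 were 2300 to 4281 kb away and 1258 to 2184 bp wide. The farthest, on chromosome 2 from 80219648 to 80221516, was 4281 kb from the mark, with the next RUNX1 peak 35.8 kb away. The second, on chromosome 13 from 84710968 to 84712675, had no other RUNX1 peak within 1403 kb. Another, on chromosome 4 from 65747958 to 65750141, was 730 kb from the next RUNX1 peak and alone among the 5 in holding an SMA4 peak, of 333 bp and 234 bp from its midpoint. Wide RUNX1 peaks were thus also found as single peaks in stretches with hardly any other peak. The remaining pair lay on chromosome 7, from 69470817 to 69472179 and from 69068316 to 69069573. As background from the same general knowledge, the chromosome 2 peak lies in CTNNA2, which encodes a catenin of neurons, and the chromosome 7 pair in AUTS2, which encodes a partner of Polycomb complexes. Both are very long genes.

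Many wide distal peaks had a RUNX1 neighbour. Of the 1309, 472 (36.1%) were single, 359 lay in regions of 2 RUNX1 peaks, 283 in regions of 3 and 195 in regions of 4, the most that the rule allows. The median gap to the next RUNX1 peak was 6.09 kb (quartiles 1.08 and 20.4 kb), against 12.1 kb (quartiles 2.68 and 33.6 kb) for the narrower distal peaks outside large clusters. In regions of 2 to 4 peaks, 722 of 837 wide peaks (86.3%) were the widest of their region. The minimum width of the rule favours this, so the share is only a description. The 1309 peaks fell in 1229 regions, of which 77 held 2 or more of them. Of the 1309 peaks, 84 (6.42%) shared their region with a RUNX1 peak that overlapped H3K4me3. Single peaks cannot do so and the rule keeps H3K4me3 more than 5 kb away, so a low share is partly built in. The share was not counted for other sets of RUNX1 peaks.

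No region held more than 3 wide distal peaks, and only 3 regions held that many. On chromosome 16 from 71186454 to 71192072, peaks of 1875, 1337 and 2018 bp followed each other almost without a break, and the first held an SMA4 peak. On chromosome 2 from 165910782 to 165926253 the widths were 1313, 1684 and 2522 bp. On chromosome 9 from 5832075 to 5845678 they were 1474, 1821 and 1820 bp, with a further RUNX1 peak of 225 bp between them. Neither of the latter regions held SMA4.

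Over longer stretches the wide distal peaks were mostly apart. When they were joined at gaps of 100 kb or less, 929 stayed single, 123 groups held 2, 32 held 3, 7 held 4 and 2 held 5. Both groups of 5 lay on chromosome 17. The first, from 64326922 to 64423080, had peaks 1214 to 2567 bp wide, with the nearest H3K4me3 peak 17.2 kb away. The second, from 55361838 to 55486380, had peaks of 1687, 1728, 3461, 1233 and 2978 bp, of which the first was 25.7 kb and the last 142 kb from H3K4me3. Neither held an SMA4 peak. As background, the first group lies in PRKCA, which encodes a protein kinase C, and the second in MSI2, which encodes an RNA-binding protein of blood stem cells and leukaemia.

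Of the 7 groups of 4, 1 held SMA4, in 2 of its peaks. Of the others, as background, that on chromosome 21 from 32698523 to 32799475 lies in TIAM1, an activator of the GTPase RAC, and that on chromosome 4 from 140871521 to 141022134 in MAML3, a coactivator of NOTCH. The group on chromosome 21 from 40138799 to 40310948 lies around ETS2, an ETS family transcription factor gene, with the nearest H3K4me3 peak 37.8 kb away. Further groups, for which no gene is named here, were on chromosome 12 from 129967012 to 130051152, chromosome 14 from 72868047 to 73062052 and chromosome 17 from 75839118 to 75931743. The genes named for groups of 4 are therefore not a full list. In the group on chromosome 12 the peaks were 1518 to 2580 bp wide and at least 336 kb from H3K4me3. In that on chromosome 14 they were 1255 to 1939 bp wide and at least 298 kb from it.

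Stretches between adjacent H3K4me3 peaks held few wide distal peaks each. The 1309 peaks fell in 983 such stretches, and 764 stretches held 1. The most, 7, lay in a stretch of 2.41 Mb on chromosome 3 from 58828101 to 61237150. Its peaks were 1591, 1433, 2659, 2221, 1276, 1365 and 1835 bp wide, lay 672 to 1202 kb from H3K4me3, and held no SMA4 peak. As background, FHIT, a long gene with a common fragile site, takes up much of it. A stretch of 1.41 Mb on chromosome 8 from 134309927 to 135724638 held 6, and so did one of 0.502 Mb on chromosome 17 from 75451435 to 75953673. Neither held an SMA4 peak in them.

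SMA4 was not used to choose the peaks. It overlapped 118 of the 1309 wide distal peaks (9.01%, 95% interval 7.58 to 10.7%), sharing at least 1 bp. Over all 36736 RUNX1 peaks the share was 2.56%, and over the 35427 others it was 2.32%. Narrower distal peaks outside large clusters overlapped SMA4 in 2.01% of cases (322 of 16028), and wide peaks with H3K4me3 within 5 kb in 4.48% (205 of 4581). Wide distal peaks in large clusters had 10.6% (80 of 755). The wide distal peaks outside clusters therefore exceeded the narrower ones by 7.01 percentage points (95% interval 5.55 to 8.69) and the wide ones near H3K4me3 by 4.54 points (2.97 to 6.30). The clustered wide peaks differed from them by -1.58 points with an interval that includes 0 (-4.38 to 1.03). The SMA4 list is short, with 1475 peaks, and came from another batch folder and peak-calling pipeline than the other lists, so a peak without SMA4 is not shown to lack the target.

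A wide peak also covers more sequence in which an SMA4 peak can fall. In a window of the same size for every peak, 250 bp either side of its midpoint, SMA4 was found at 89 wide distal peaks (6.80%, 95% interval 5.56 to 8.29%), against 2.16% of all RUNX1 peaks. The share was 2.02% for the narrower distal peaks, 2.73% for the wide peaks near H3K4me3 and 7.15% for the clustered ones. The differences were 4.78 points (3.52 to 6.29), 4.07 points (2.73 to 5.63) and -0.35 points (-2.76 to 1.86). Per Mb of peak sequence there were 60.7 SMA4 peaks in the wide distal peaks, 37.9 in the narrower distal ones, 26.9 in the wide ones near H3K4me3 and 61.7 in the clustered ones. The wide distal peaks were thus above the narrower ones and those near H3K4me3 per peak, per window and per base, whereas these last 2 sets changed order per base.

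Among distal peaks outside large clusters, the share with SMA4 was higher in each wider class, below the 1200 bp limit as well as above it. It was 0.676% below 400 bp, 1.81% from 400 to below 600 bp, 3.09% to below 800 bp, 3.60% to below 1000 bp and 4.83% to below 1200 bp. From the limit upwards it was 7.28% (51 of 701) below 1500 bp, 8.64% (35 of 405) from 1500 to below 2000 bp and 15.8% (32 of 203) from 2000 bp. Distal peaks in large clusters also had a higher share in each wider class, from 0.290% below 400 bp. In the same 3 classes from the limit upwards they had 8.14%, 8.47% and 17%, so the rise with width was shared by clustered peaks. Near H3K4me3 the same 3 classes had 2.89%, 3.66% and 8.73%. At matched width the wide distal peaks were thus higher than those near H3K4me3 by 4.39 points (95% interval 2.49 to 6.65), 4.98 points (2.40 to 8.22) and 7.03 points (2.28 to 12.9). The median width of the wide distal peaks was 1600 bp with SMA4 (quartiles 1333 and 2058 bp) and 1453 bp without (1299 and 1755 bp).

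**Figure D2:**
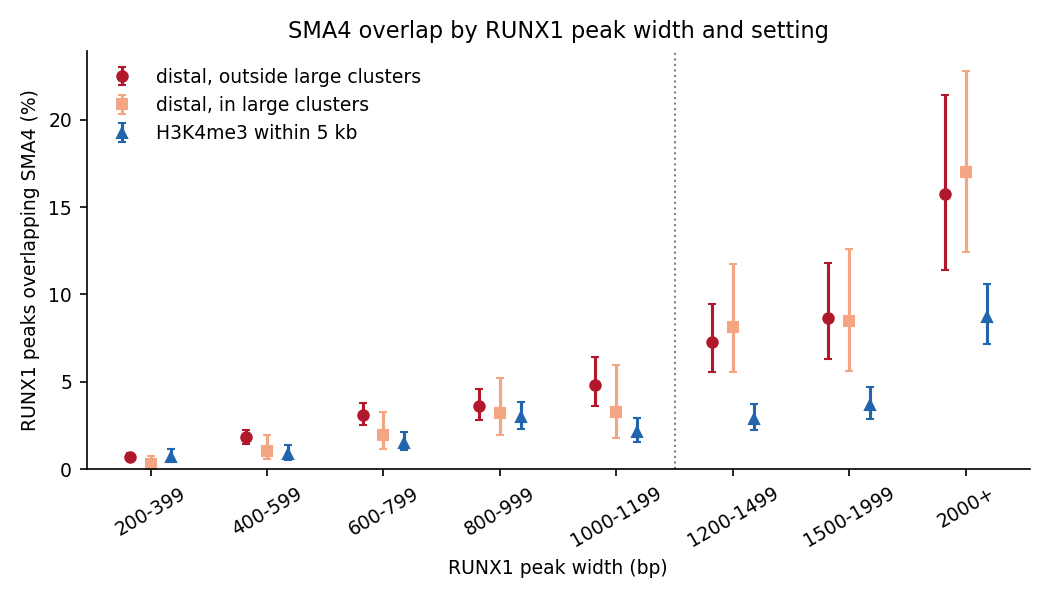
Share of RUNX1 peaks overlapping an SMA4 peak (y axis, %, with 95% Wilson intervals) by RUNX1 peak width (x axis, bp) for distal peaks outside large clusters, distal peaks in large clusters and peaks with H3K4me3 within 5 kb. The dotted line is the 1200 bp limit, to the right of which the circles are the wide distal peaks, at 7.28%, 8.64% and 15.8%. There the squares, for peaks in large clusters, are at 8.14%, 8.47% and 17%, and the triangles near H3K4me3 are at 2.89%, 3.66% and 8.73%.

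SMA4 peaks sat towards the middle of the wide distal peaks. The 118 peaks held 129 SMA4 peaks, which were 8.75% of the SMA4 list and 13.3% of the 972 SMA4 peaks in any RUNX1 peak. Of the 129, 119 lay wholly inside the RUNX1 peak and 95 (73.6%) had their midpoint in the central 50% of its length. The median distance between the midpoints was 256 bp (quartiles 115 and 415 bp). These SMA4 peaks were somewhat wider than the list as a whole, with medians of 266 and 219 bp. Of the wide distal peaks that SMA4 did not overlap, only 1 had SMA4 within 1 kb, and 21 had it within 10 kb. For the wide distal peaks without SMA4 the nearest SMA4 peak was a median of 879 kb away.

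**Figure D3:**
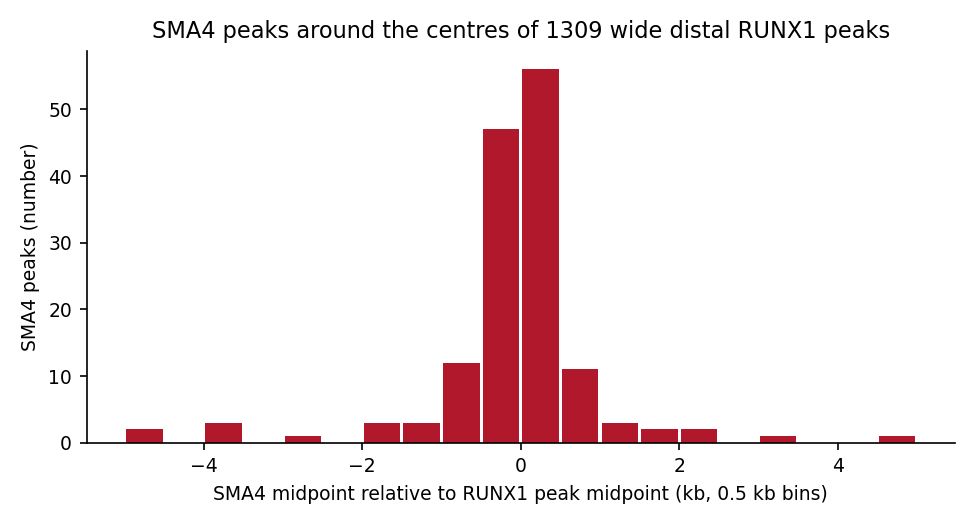
Number of SMA4 peak midpoints (y axis) by their position relative to the midpoint of a wide distal RUNX1 peak (x axis, kb, in bins of 0.5 kb), summed over 1309 RUNX1 peaks. The 2 central bins hold 47 and 56 midpoints and the next ones 12 and 11, and bins beyond 1 kb on either side hold at most 3.

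Distance to H3K4me3 and SMA4 overlap went together. Up to 250 kb from H3K4me3, 83 of 1075 wide distal peaks held SMA4 (7.72%, 95% interval 6.27 to 9.47%). Beyond 250 kb, 35 of 234 did (14.96%, 10.96 to 20.1%). The split at 250 kb was chosen after the shares had been seen, so the difference is a description. In classes, the share stayed between 6.52% and 7.74% up to 100 kb, was 9.19% from 100 to 250 kb, 15.3% to 500 kb, 12.7% to 1000 kb and 18.2% (4 of 22) beyond. Among the narrower distal peaks the share was higher in each farther class, from 0.699% within 10 kb to 8.30% beyond 1000 kb, with 1.46% up to 250 kb and 4.53% farther away. A higher share beyond 250 kb was thus found in both sets. The median distance to H3K4me3 was 141 kb for wide distal peaks with SMA4 and 82.0 kb for those without.

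**Figure D4:**
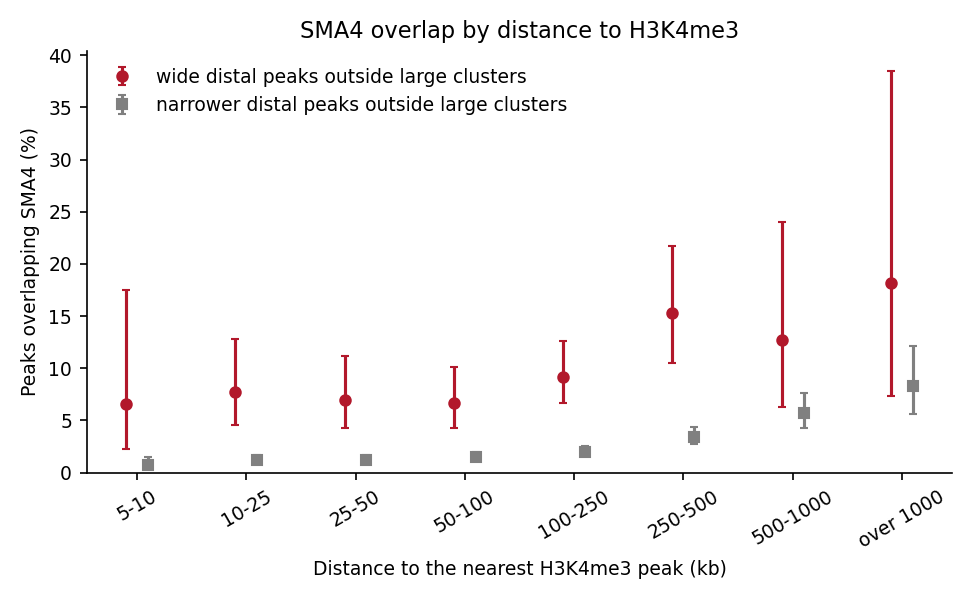
Share of distal RUNX1 peaks outside large clusters overlapping SMA4 (y axis, %, with 95% Wilson intervals) by distance to the nearest H3K4me3 peak (x axis, kb), for wide and narrower peaks. Wide peaks are above narrower ones in every class, from 6.52% against 0.699% within 10 kb to 18.2% against 8.30% beyond 1000 kb, where only 22 wide peaks remain.

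SMA4 shares did not follow the number of RUNX1 neighbours. The share was 8.47% (40 of 472) for single wide distal peaks, 8.91% in regions of 2 RUNX1 peaks, 10.95% in regions of 3 and 7.69% in regions of 4, with intervals that all overlap. Just beyond the rule, 20 of 153 wide distal peaks in regions of 5 held SMA4 (13.1%, 95% interval 8.62 to 19.3%).

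The peaks with the most bases in SMA4 were of moderate width, 1252 to 2480 bp for the first 10, and 6 of these were single. The first, on chromosome 2 from 196423827 to 196425460, held 1 SMA4 peak of 1176 bp in its 1634 bp, 96.0 kb from H3K4me3. The second, on chromosome 6 from 130069316 to 130071282, was the only wide distal peak with 3 SMA4 peaks, of 547, 244 and 331 bp. The third, on chromosome 5 from 51799943 to 51801194, held parts of 2 SMA4 peaks, of 706 and 863 bp, that ran past both of its ends. SMA4 covered 1176, 1122 and 940 bp of these peaks, and 214 to 473 bp of the 4 of the 10 widest peaks with SMA4. Since the former were ranked by SMA4 bases and the latter by width, this contrast follows from the ranking.

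A peak on chromosome 11 from 36705263 to 36707443 held an SMA4 peak of 768 bp and was 85.3 kb from H3K4me3. As background, it lies in the neighbourhood of RAG1 and RAG2, the genes of the recombinase that assembles T cell receptor genes. A peak with 2 SMA4 peaks, of 381 and 394 bp, lay on chromosome 2 from 162848843 to 162850163, at 324 kb from H3K4me3. As background, it lies at DPP4, which encodes the T cell surface peptidase CD26. A single peak on chromosome 9 from 21080769 to 21083248 held an SMA4 peak of 665 bp, 26.5 bp from its midpoint. On the map it lies beside the interferon beta gene IFNB1.

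The other peaks of this group of 10 were spread over several chromosomes. A peak on chromosome 12 from 24577179 to 24578870 held an SMA4 peak of 817 bp and, as background, lies in SOX5, a transcription factor gene. One on chromosome 1 from 157628150 to 157629948 held an SMA4 peak of 666 bp and, on the same map, lies between FCRL3 and FCRL4, which encode Fc receptor-like proteins of lymphocytes. The last pair lay on chromosome 1 from 14646752 to 14648349, 570 kb from H3K4me3, and on chromosome 8 from 16404431 to 16406632. All 10 were at least 13.7 kb from H3K4me3.

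In all, 10 wide distal peaks held 2 or more SMA4 peaks. A pair of them, chosen here after their values were seen, lie by genes of T cell development. This pair says nothing about the genes near the rest of the 10. A peak of 1672 bp on chromosome 5, from 35884270 to 35885941, contained SMA4 peaks of 243 and 191 bp, was 180 kb from H3K4me3 and had 2 RUNX1 neighbours in its region of 3. As background, it lies just past IL7R, which encodes the interleukin 7 receptor of developing T cells. A single peak of 1244 bp on chromosome 3, from 18782123 to 18783366, contained SMA4 peaks of 268 and 244 bp, 295 kb from H3K4me3. On the same map it lies upstream of SATB1, a gene for a chromatin organiser of thymocytes.

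Wide distal peaks were found on every chromosome used, from 16 on chromosome X to 127 on chromosome 1. As a share of the chromosome's RUNX1 peaks they were most frequent on chromosome 21 (6.18%, 35 of 566, 95% interval 4.48 to 8.48%) and chromosome 8 (5.15%, 78 of 1515, 4.14 to 6.38%). They were least frequent on chromosome 19 (1.64%, 26 of 1586, 1.12 to 2.39%) and chromosome X (1.77%, 16 of 905, 1.09 to 2.85%). The intervals of these 4 chromosomes did not include the share over all chromosomes, 3.56%, and those of the other 19 did. They were not adjusted for the number of chromosomes looked at, and they treat neighbouring peaks as independent. Chromosome 17 had the most per Mb, 0.936, followed by chromosome 21 with 0.728, and chromosome X the fewest, 0.103. The number with SMA4 ran from 0 of 27 on chromosome 22 to 11 of 64 on chromosome 4. As a share it was highest on chromosome 18, with 6 of 18, against 9.01% over all chromosomes. With 3 counts as the limit that a count of 0 allows, the share on chromosome 22 could be up to 11.1%. Gene density, copy number and mappability of the chromosomes were not used here, and their part in these shares was not tested.

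**Figure D5:**
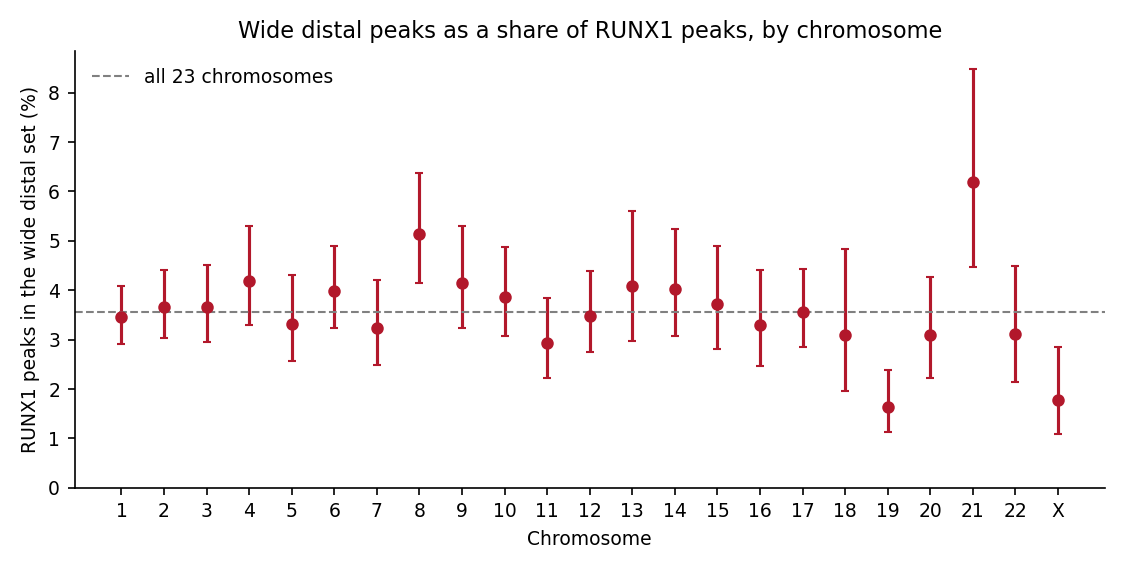
Wide distal peaks outside large clusters as a share of all RUNX1 peaks of a chromosome (y axis, %, with 95% Wilson intervals) by chromosome (x axis), with the share over all chromosomes, 3.56%, as a dashed line. Chromosomes 21 and 8 stand above the line, at 6.18% and 5.15%, and chromosomes 19 and X below it, at 1.64% and 1.77%.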

How the data were processed

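Each library's peaks were deposited by the authors as a list of intervals and running names in hg19, in 4 columns that hold no height, score, p-value or read count. The headers of the H3K4me3 and RUNX1 lists name MACS2 and a folder for batch 2. The SMA4 header names cutruntools, a q threshold of 0.01 and a folder for batch 3. SEACR also appears in the submitters' processing notes. The aligner, the control behind each list and the H3K4me3 and RUNX1 thresholds were not given in the sources used here. Depth is therefore unknown.

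Chromosomes 1 to 22 and X were kept. Overlap meant at least 1 shared bp, distances were measured edge to edge, and coordinates are written 1-based. Wilson intervals came from SciPy 1.17.1 in Python 3.11.15. Interval functions were tested on simulated peaks. The named peaks were the 10 widest, the 10 with the most bases in SMA4, the 5 farthest from H3K4me3 and those on either side of each limit. The peaks and lists were chosen with earlier results of these data known. No hg19 sequence or annotation was used here, so planned motif and nearest-gene counts were not made, gene names are background only, and no sequence is shown. Joining peaks at 100 kb, stretches between H3K4me3 peaks and distance classes were added after the lists were seen. The alternatives tried were other limits of the rule, other overlap definitions and other distances. The place of 1 of the groups of 4 peaks, the one with SMA4, is not reported here.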

Additional observations from a re-analysis of the deposited data

How the results depend on the processing

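The number of wide distal peaks followed the limits of the rule. It was 1309 as reported, 2199 with a minimum width of 1000 bp, 608 with 1500 bp, 831 when regions of 3 or more peaks were left out and 2064 when none was left out. It stayed within 1.5 times the reported number with H3K4me3 limits of 2 or 10 kb (1351 and 1263), joining gaps of 5 or 25 kb (1667 and 961), all sequences and merging of touching peaks (1309 each). The SMA4 share of 9.01% was 7.32% and 11.02% with minimum widths of 1000 and 1500 bp, and 3.36% when the RUNX1 midpoint had to lie in the SMA4 peak. In that last setting the share was 1.33% for narrower distal peaks and 1.03% for wide peaks near H3K4me3, both below the wide distal peaks. The share of single peaks, 36.1%, was 46.6% and 29.3% with joining gaps of 5 and 25 kb. SMA4 in a window of 100 bp either side of the midpoint was at 5.04%, against 6.80% with 250 bp. With 100 bp the share was 1.74% for all RUNX1 peaks and 4.90% for wide distal peaks in large clusters. Of 25 alternatives, 15 stayed inside the interval, or within 1.5 times the count, of the reported value. Other limits change which peaks are counted by construction. No paired analysis was possible because each antibody had 1 library. Alternatives on genes and motifs were not run, as no hg19 annotation or sequence was used here.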
